A study of Homo sapiens with 21 samples.

Results

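The comparison is between stem cell-derived islets that lack PDX1 and unedited (WT) islets, both given the control vector that carries only BFP, a blue fluorescent protein. Its members are the count columns named for the PDX1 knockout with BFP, 3 libraries, and for WT with BFP, 2 libraries, which is 5 of the 21 libraries of the series. All come from H1, a human embryonic stem cell line. In the PDX1-/- libraries the labels give a homozygous PDX1 knockout, and in the WT libraries no edit. Both groups were infected with the BFP lentivirus on day 11 of differentiation, and on day 18 the cells that carried BFP were collected by sorting. The 2 other knockouts that were given the same vector, ISL1-/- and PAX6-/-, with 3 libraries each, serve as points of comparison. The study calls the libraries of a group biological replicates; the labels do not say whether a knockout is 1 clone, what the edit removes, or whether replicates are separate differentiations. P-values therefore measure the spread between these libraries.

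PDX1 is a homeodomain transcription factor that is needed for the pancreas to form in the embryo and, later, for beta cells to keep their identity. In beta cells it binds promoters and enhancers of insulin and of genes for glucose sensing, and it is also made in the duodenum and in some hormone cells of the gut. Its homeodomain recognises short sequences with a TAAT core. Heterozygous mutations of PDX1 cause a form of monogenic diabetes, and loss of both copies causes failure of the pancreas to form.

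The 5 libraries held from 36807615 to 58378771 counts, and mitochondrial genes took from 1.39% to 1.84% of them. Levels below are in CPM, the usual unit of counts scaled to a common library size, with library sizes adjusted by the TMM method. Across all genes tested the correlation of log2 CPM was from 0.985 to 0.987 among the PDX1-/- libraries, 0.983 between the WT libraries, and from 0.952 to 0.963 between the groups. Collagen and other mesenchyme genes varied within both groups: the 14 genes of a mesenchyme list summed to 938, 206 and 199 CPM in PDX1-/- replicates 1, 2 and 3 and to 1421 and 402 CPM in WT replicates 1 and 3. Outside the contrast, replicate 4 of PDX1-/- with the ISL1 vector had INS at 25610 CPM, where the other library of that group had 164 CPM. Whether replicate 4 has the genotype of its label was not tested. Replicate 4 enters the scaling, the filter on low counts and the shared estimate of spread. Leaving it out raised the number of genes called in the contrast from 2506 to 3984, and the number tested from 25884 to 27551. Leaving out both it and replicate 3 of PAX6-/- with ISL1, an alternative chosen after the data were seen, raised the number called to 7544. Mitochondrial genes took 3.843% and 3.165% of the counts in these 2 libraries, and from 1.276% to 1.926% in all others of the series.

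Transcripts of the targeted gene did not fall. PDX1, on chromosome 13 (GRCh38, 27920000 to 27926313, plus strand), was at 103, 116 and 113 CPM in the PDX1-/- libraries and at 80 and 102 CPM in the WT libraries. The log2 fold change was 0.29 ± 0.23 (SE; adjusted p = 0.541 by edgeR's quasi-likelihood test). Counts over the whole gene do not show whether a functional protein is made, so they neither support nor contradict the label. Of 10 other genes beside PDX1 on chromosome 13 that were tested, URAD alone passed the test, at 2.16, 1.75 and 1.81 CPM against 8.72 and 7.01 CPM (edgeR adjusted p = 0.0265), and its call was lost in each of the 5 fits that left out a library. The neighbouring homeobox gene CDX2, which specifies intestine, was at 81.2, 64.9 and 86.0 CPM against 124 and 114 CPM (adjusted p = 0.457).

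Of 25884 genes tested, 2506 differed between PDX1-/- and WT at an adjusted p under 0.05, which is 9.68%. Of these, 1043 were higher in PDX1-/- (4.03% of genes tested) and 1463 were lower (5.65%). The median log2 fold change was 1.61 among the genes called higher and -1.90 among those called lower, while over all genes tested it was 0.03. A change of at least 3 on the log2 scale was seen in 118 of the genes called higher and in 299 of those called lower. In 70 of the genes called lower, every PDX1-/- library had 3 counts or fewer, and in 64 of those called higher, both WT libraries did. Lists below are set beside the shares over all genes tested, noncoding genes included. Among the 16264 tested genes annotated as protein-coding, the shares were larger, at 4.98% called higher and 7.51% called lower. Calls depended on the WT pair: 736 genes were called without WT replicate 1 (174 higher, 562 lower) and 912 without WT replicate 3 (245 higher, 667 lower). With PDX1-/- replicates 1, 2 or 3 left out in turn, 1714, 1389 and 1428 genes were called. In such fits with 1 WT library, that library is assumed to vary like the other groups.

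**Figure D1:**
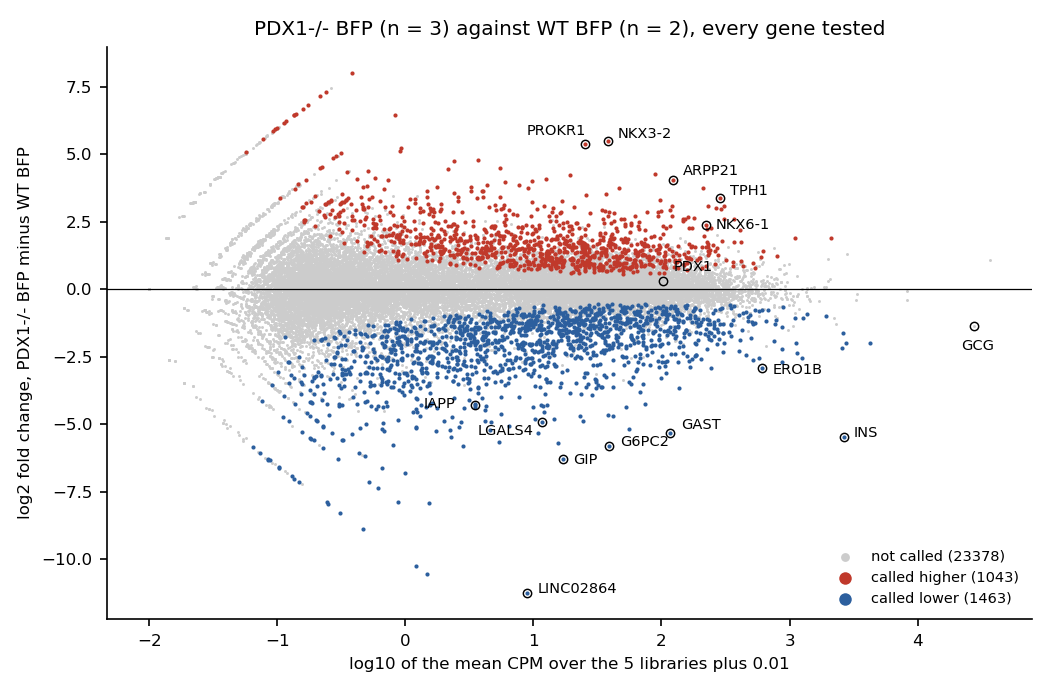
Each point is 1 of 25884 genes, with the log10 of its mean CPM over the 5 libraries on the horizontal axis and the log2 fold change of PDX1-/- BFP (n = 3) minus WT BFP (n = 2) on the vertical axis. Red points were called higher (1043), blue points lower (1463) and grey points were not called. INS, GAST, G6PC2 and GIP lie more than 5 log2 units below 0, and NKX3-2 and PROKR1 more than 5 above, while PDX1 lies near 0.

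Insulin transcripts were strongly reduced. INS (chromosome 11, 2159779 to 2161221, minus strand) had 186, 163 and 87.5 CPM in the PDX1-/- libraries and 7185 and 5651 CPM in the WT libraries. The ratio of the means was 44.1, with a log2 fold change of -5.46 ± 1.06 (SE; edgeR adjusted p = 0.00361). INS took 0.673% and 0.508% of all counts in the WT libraries and from 0.00861% to 0.0182% in the PDX1-/- libraries. Exons of INS are shared with the readthrough gene INS-IGF2, and how reads over both were counted is not given in the sources used here. In such sorted bulk samples, fewer cells of a type and less RNA per cell cannot be told apart.

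The other islet hormones were reduced less or did not pass the test. IAPP, which encodes the amyloid peptide that beta cells secrete with insulin, fell from 8.24 and 7.92 CPM in WT to 0.312, 0.607 and 0.306 CPM (log2 fold change -4.29 ± 0.91 (SE), edgeR adjusted p = 0.00598). GCG, the glucagon precursor, was abundant in every library, with 14970 CPM in the lowest. Its share of all counts was 1.46%, 1.88% and 1.60% in PDX1-/- and 3.39% and 4.61% in WT. The groups did not overlap, with PDX1-/- below WT, as was so for 25.4% of all genes tested. The log2 fold change of -1.37 ± 0.89 (SE) did not pass the test (edgeR adjusted p = 0.417). It did pass when only the libraries compared were fitted (edgeR adjusted p = 0.000728). SST, the somatostatin of delta cells, was at 26.3, 26.2 and 7.01 CPM against 92.7 and 138 CPM, with an adjusted p of 0.0612. SST was called, lower, with a replicate block by the number in the title (edgeR adjusted p = 0.046), without PDX1-/- ISL1 replicate 4 (0.0366) and when only the libraries compared were fitted. It was not called with a block by the number in the description (edgeR adjusted p = 0.0758), with DESeq2 size factors or with any PDX1-/- BFP library left out. Its log2 fold change was from -2.80 to -2.14 in fits that left out 1 library of the contrast. PPY (pancreatic polypeptide) and GHRL (ghrelin) overlapped between the groups, at 1.42 to 1.66 against 1.47 and 3.84 CPM for PPY and at 83.4 to 145 against 74.5 and 83.6 CPM for GHRL. In the fit of all libraries 2 of the 6 hormone genes were called, both lower, and from 2 to 4 in its alternatives, with a median log2 fold change of -1.96 over the list beside 0.03 over all genes.

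Promoters of genes in this group are shown because PDX1 is known to act at several of them through TAAT sites. The 4 genes that fell (INS, IAPP, G6PC2 and SLC2A2) and TPH1, which rose, are given as the 250 bases before the start, 5′ to 3′ on the gene's strand, from RefSeq (GRCh38.p14). Capitals mark TAAT or its reverse complement ATTA, and overlapping matches run together.
INS, chr11:2161210-2161459, minus strand: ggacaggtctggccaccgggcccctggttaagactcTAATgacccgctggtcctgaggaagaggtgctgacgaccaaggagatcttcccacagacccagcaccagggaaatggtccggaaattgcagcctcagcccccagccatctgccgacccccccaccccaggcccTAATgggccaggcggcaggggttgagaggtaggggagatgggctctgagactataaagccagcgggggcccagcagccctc
IAPP, chr12:21354709-21354958, plus strand: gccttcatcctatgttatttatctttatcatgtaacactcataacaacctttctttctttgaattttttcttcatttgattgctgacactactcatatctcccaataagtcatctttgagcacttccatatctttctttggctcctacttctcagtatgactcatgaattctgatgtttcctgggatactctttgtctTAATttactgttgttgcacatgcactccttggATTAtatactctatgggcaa
G6PC2, chr2:168901041-168901290, plus strand: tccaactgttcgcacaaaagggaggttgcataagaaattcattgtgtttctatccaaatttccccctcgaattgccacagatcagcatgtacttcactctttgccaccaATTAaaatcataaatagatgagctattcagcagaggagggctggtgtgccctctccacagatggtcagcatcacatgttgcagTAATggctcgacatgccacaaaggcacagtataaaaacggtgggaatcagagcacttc
SLC2A2, chr3:171026721-171026970, minus strand: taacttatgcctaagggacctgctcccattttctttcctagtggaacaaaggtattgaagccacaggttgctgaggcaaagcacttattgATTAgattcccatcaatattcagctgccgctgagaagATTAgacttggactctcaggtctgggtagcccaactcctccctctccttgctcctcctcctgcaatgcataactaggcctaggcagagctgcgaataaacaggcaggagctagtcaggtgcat
TPH1, chr11:18046270-18046519, minus strand: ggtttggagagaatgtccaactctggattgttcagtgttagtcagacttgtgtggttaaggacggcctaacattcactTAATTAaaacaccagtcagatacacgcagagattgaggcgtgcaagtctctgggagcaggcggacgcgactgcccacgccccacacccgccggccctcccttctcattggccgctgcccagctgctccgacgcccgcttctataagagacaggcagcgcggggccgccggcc

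Each of these 5 windows holds 2 matches to TAAT on either strand, but other named genes differ: the same window has 7 matches for GIP, which fell, and 1 for NKX3-2 and 0 for NKX6-1, which rose. So short a motif is frequent: 48.2% of the 27305 promoters in the table hold at least 1 in the same window, as do 36.2% of the 14750 promoters of genes tested. The share was 41.5% among 1022 promoters of genes called lower and 37.0% among 673 promoters of genes called higher. The palindrome TAATTA, which contains the core on both strands and is present before TPH1, was in 2.48% of promoters of genes tested, 2.94% of those called lower and 3.86% of those called higher. A match is a description of the letters and not a binding site.

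Most of the beta cell genes that were called fell, and some rose. Of the 20 genes in the beta cell list, all tested, 11 were called lower and 2 higher, with a median log2 fold change of -1.07, against 5.65% and 4.03% of all genes. In fits that each left out 1 of the 5 libraries, from 5 to 9 members were called lower and 2 higher, with the lowest number without WT replicate 3. G6PC2, the islet glucose-6-phosphatase, had 1.29, 2.25 and 1.51 CPM in PDX1-/- against 87.6 and 104 CPM in WT, a ratio of means of 56.8 and a log2 fold change of -5.82 ± 0.93 (SE; edgeR adjusted p = 0.00137). CASR, the calcium-sensing receptor, had 4.45, 2.50 and 4.28 CPM against 151 and 119 CPM (edgeR adjusted p = 0.000207). ERO1B, the oxidase that helps to form disulphide bonds in proinsulin, fell from 1105 and 1448 CPM to 165, 189 and 149 CPM (log2 fold change -2.93 ± 0.29 (SE), edgeR adjusted p = 8.15e-05). The groups did not overlap in any of these 3 genes, but PDX1-/- also lay wholly below WT in 25.4% of all genes tested and wholly above in 27%.

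The maturity marker UCN3 (urocortin 3) was at 1 count or fewer in each PDX1-/- library and at 2.83 and 1.48 CPM in WT, at least 35.7-fold lower if each PDX1-/- library is given 3 counts (edgeR adjusted p = 0.00467). ENTPD3, a surface ectonucleotidase of beta cells, had 0.208, 0.286 and 0.459 CPM against 5.52 and 7.83 CPM. The zinc transporter of insulin granules, SLC30A8, fell by 1.15 on the log2 scale, from 376 and 442 CPM to 189, 180 and 183 CPM (edgeR adjusted p = 0.00903, and 0.096 without WT replicate 3). SLC2A2, the low-affinity glucose transporter and a known PDX1 target, fell from 25.7 and 29.1 CPM to 4.30, 1.97 and 1.81 CPM (log2 fold change -3.35 ± 0.50 (SE), edgeR adjusted p = 0.000683). The subunits of the potassium channel that couples glucose to secretion were not called: KCNJ11 was at 32.6 to 34.4 against 47.2 and 50.9 CPM (adjusted p = 0.097), and ABCC8 was at 331.1 to 391.7 against 715 and 644 CPM (adjusted p = 0.0695).

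Other genes of the beta cell list went the opposite way. NKX6-1, a homeobox factor of pancreatic progenitors and beta cells that PDX1 is known to act upon, was at 320, 302 and 357 CPM in PDX1-/- and at 46.0 and 79.6 CPM in WT. That is a ratio of means of 5.20 and a log2 fold change of 2.38 ± 0.40 (SE; edgeR adjusted p = 0.00142). SYT13, a synaptotagmin of endocrine precursors, rose from 47.9 and 51.2 CPM to 263, 243 and 214 CPM (edgeR adjusted p = 8.15e-05). MAFA, a late beta cell factor, was low throughout, with 4.78, 2.97 and 4.61 CPM against 0.659 and 1.27 CPM (adjusted p = 0.079). Of 17 genes listed as known PDX1 targets, PDX1 included, 3 were called lower (INS, IAPP and SLC2A2) and 2 higher (NKX6-1 and MNX1), with a median log2 fold change of -0.13. The share called was 29.4%, beside 9.68% of all genes. MNX1, a homeobox gene of the pancreatic bud and of beta cells, had 317, 428 and 325 CPM against 58.4 and 89.3 CPM (edgeR adjusted p = 0.00104).

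**Figure D2:**
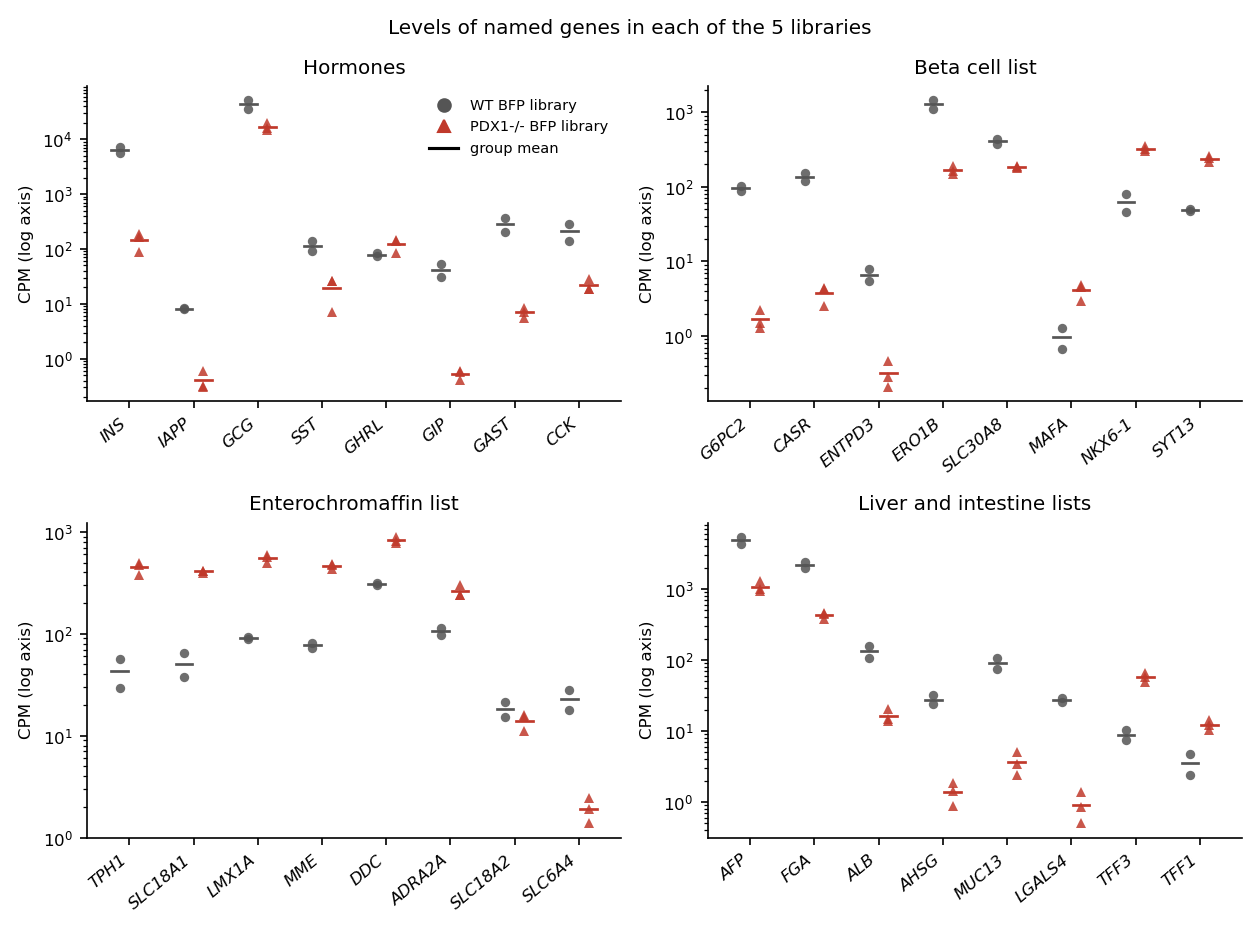
CPM on a log axis for 32 genes in each PDX1-/- BFP library (red triangles, n = 3) and each WT BFP library (grey circles, n = 2), with bars at the group means. INS lies at 87.5 to 186 CPM in PDX1-/- and at 5651 and 7185 CPM in WT, G6PC2 and LGALS4 are likewise far lower in PDX1-/-, and TPH1, SLC18A1, LMX1A, NKX6-1 and TFF3 are higher in all 3 PDX1-/- libraries.

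Several genes of serotonin-producing enterochromaffin-like cells, an endocrine type that arises beside beta cells in stem cell-derived islets, rose. Of the 12 genes of this list, 5 were called higher (TPH1, SLC18A1, LMX1A, MME and DDC), 1 lower (SLC6A4) and 6 neither way, with a median log2 fold change of 0.82. Over all genes tested, 4.03% were called higher and 5.65% lower. With 1 library left out, 4 or 5 were called higher and 1 lower. Their summed level was from 3469 to 3868 CPM in PDX1-/- and 1192 and 1408 CPM in WT. TPH1, the first enzyme of serotonin synthesis in peripheral tissue, was at 381, 495 and 475 CPM in PDX1-/- and at 29.2 and 56.6 CPM in WT. Its ratio of means was 10.5 and its log2 fold change 3.39 ± 0.58 (SE; edgeR adjusted p = 0.00160).

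SLC18A1, which loads monoamines into secretory granules, rose from 37.6 and 64.1 CPM to 397, 414 and 416 CPM (edgeR adjusted p = 0.00178). LMX1A, a LIM homeobox factor of these cells, rose from 88.1 and 94.0 CPM to 565, 597 and 496 CPM (edgeR adjusted p = 0.00195). DDC, the next enzyme of serotonin synthesis, was at 808, 894 and 784 CPM against 304 and 314 CPM (edgeR adjusted p = 0.00079). The serotonin reuptake transporter SLC6A4 moved the other way, from 28.1 and 17.7 CPM to 2.45, 1.91 and 1.38 CPM (log2 fold change -3.58 ± 0.58 (SE), edgeR adjusted p = 0.0011). TAC1, which encodes substance P, and REG4 were at most 1.45 CPM in every library, and the vesicular transporter SLC18A2 overlapped between the groups, at 11.0 to 15.9 against 15.2 and 21.2 CPM.

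Factors of early endocrine differentiation split into those that rose and those at similar levels. Of 20 endocrine progenitor genes, 6 were called higher (MNX1, NKX2-2, INSM1, MYT1, HES6 and RFX3) and 1 lower (ISL1), and the list's median log2 fold change was 0.23. The share called was 35%, beside 9.68% of all genes tested. Without WT replicate 1, the list had 1 gene called higher and 1 lower; the other fits that left out 1 library called 3 or 4 higher and none lower. INSM1, a zinc finger factor of all endocrine cells, was at 2878, 3053 and 3095 CPM in PDX1-/- against 633 and 966 CPM (edgeR adjusted p = 0.0102, and at most 0.173 without 1 WT library). ISL1, the factor that the series deletes in another line, had 153, 174 and 132 CPM against 306 and 519 CPM. Its log2 fold change was -1.43 ± 0.39 (SE; edgeR adjusted p = 0.0254), and it passed the test in 1 of the 5 fits that left out a library, the one without WT replicate 1. PAX6 did not overlap between the groups, at 98.6 to 117 CPM against 140 and 232 CPM, but was not called (edgeR adjusted p = 0.348). PDX1-/- lay wholly below WT in 25.4% of all genes tested.

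The trigger of endocrine fate, NEUROG3, was at 139, 130 and 74.7 CPM against 117 and 178 CPM, and NEUROD1 and RFX6 had log2 fold changes of -0.02 and 0.01. Of 22 genes of pancreatic progenitors, 1 was called, TCF7L2, which fell from 45.5 and 39.8 CPM to 19.3 to 21.2 CPM (edgeR adjusted p = 0.011, and 0.131 at most with 1 library left out). SOX9, HNF4A and GATA6 had log2 fold changes between -0.41 and 0.14 and were not called. The share of this list called was 4.55%, under the 9.68% of all genes tested. Chromogranin A, the main granule protein of endocrine cells, took 4.63%, 4.69% and 4.26% of all counts in PDX1-/- and 1.85% and 2.16% in WT (CHGA log2 fold change 1.09 ± 0.36 (SE), edgeR adjusted p = 0.0653).

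Alpha and delta cell lists held calls in both or in 1 direction. The shares called were 41.2% and 30%, beside 9.68% of all genes. Of 17 alpha cell genes, 5 were lower (DPP4, TM4SF4 and PLCE1 among them) and 2 higher (FEV and IRX1), with a median log2 fold change of -0.84, and from 3 to 5 were called lower and up to 1 higher when 1 library was left out. DPP4, the peptidase that cleaves incretins, fell from 1787 and 1744 CPM to 313, 243 and 250 CPM (edgeR adjusted p = 0.00623). FEV, a factor of endocrine precursors and serotonin neurons, was at 1432, 1834 and 1456 CPM against 385 and 451 CPM (edgeR adjusted p = 0.012, and 0.148 at most without 1 WT library). Of 10 delta cell genes, 3 were lower (RBP4, FRZB and HHEX) and none higher. HHEX, the homeobox factor of delta cells, had 6.52, 6.68 and 3.58 CPM against 26.3 and 27.9 CPM (edgeR adjusted p = 0.000415), and RBP4 had 32.7, 19.6 and 21.0 CPM against 267 and 350 CPM (edgeR adjusted p = 0.0034).

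Some peptide hormone genes of the gut fell, while most were not called. The share of the list called was 20.7%, beside 9.68% of all genes. Of 29 gut hormone genes tested, 5 were called lower (GIP, GAST, GNRH2, CCK and PNOC) and 1 higher (NPW), with a median log2 fold change of -0.46; each fit without 1 library called 4 lower and none higher. GIP, the incretin of duodenal K cells, was at 0.582, 0.590 and 0.415 CPM in PDX1-/- and at 30.9 and 52.3 CPM in WT. Its ratio of means, 78.7, was the largest of the named genes that were above the floor in both groups (log2 fold change -6.29 ± 1.10 (SE), edgeR adjusted p = 0.00191). Gastrin (GAST), made in the antrum, duodenum and fetal pancreas, fell from 364 and 203 CPM to 7.02, 8.43 and 5.51 CPM (log2 fold change -5.34 ± 1.00 (SE), edgeR adjusted p = 0.00284). CCK was at 18.5 to 28.5 CPM against 286 and 140 CPM, but its call (adjusted p = 0.0289) was lost in each of the 5 fits that left out a library. PYY, with 18.1, 23.9 and 17.5 CPM against 99.9 and 83.7 CPM, was not called (adjusted p = 0.121).

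Transcription factors listed for stomach, intestine and other body regions changed in both directions, with 30.8% of the list called beside 9.68% of all genes. Of 39 tested, 5 were called higher (NKX3-2, DLX5, DLX6, SOX2 and IRX5) and 7 lower (CDX1, LHX1, PITX1, MSX2, TBX3 and NKX6-3 among them). Leaving out 1 library gave from 3 to 5 called higher and from 2 to 7 called lower, with 2 lower without WT replicate 1. NKX3-2, a homeobox factor of stomach and spleen mesenchyme (chromosome 4, 13540830 to 13544508, minus strand), had 45.05, 61.4 and 80.4 CPM in PDX1-/- and 1.3 and 1.48 CPM in WT. Its log2 fold change of 5.49 ± 0.80 (SE; edgeR adjusted p = 0.000538) was the largest rise under the naming rule. SOX2, a factor of foregut and stomach, rose from 4.39 and 7.59 CPM to 33.5, 43.6 and 49.1 CPM (edgeR adjusted p = 0.00178). DLX5 rose from 1.3 and 1.09 CPM to 12.0, 28.1 and 20.6 CPM (edgeR adjusted p = 0.00409, and 0.0625 at most without 1 WT library). PITX1, a factor of the hindlimb and pituitary, fell from 380 and 344 CPM to 69.0, 66.9 and 64.7 CPM (edgeR adjusted p = 0.00209).

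Liver genes had the highest share of calls among the lists, 80% beside 9.68% of all genes. Of 15 tested, 12 were called lower, HHEX of the delta cell list among them, and none higher, with a median log2 fold change of -2.17, and from 7 to 12 were called lower with 1 library left out, the fewest without WT replicate 3. The list summed to 7195 to 7758 CPM in PDX1-/- and to 26995 and 29352 CPM in WT. Alpha-fetoprotein (AFP), made by fetal liver and yolk sac, had 988, 948 and 1285 CPM against 4266 and 5417 CPM (edgeR adjusted p = 0.0018). The fibrinogen chain FGA fell from 1989 and 2415 CPM to 466, 372 and 441 CPM (edgeR adjusted p = 0.0021), and albumin (ALB) from 160 and 108 CPM to 20.5, 13.8 and 14.8 CPM (edgeR adjusted p = 0.000502). TTR, APOA1 and APOC3 were not called, at log2 fold changes of -1.28, -1.38 and -0.61.

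Genes listed here for the intestinal epithelium, not all of them particular to it, changed in both directions, with 52.6% called beside 9.68% of all genes. Of 19 tested, 6 were lower (LGALS4, MUC13, CDH17, FABP1, GUCY2C and AGR2) and 4 higher (TFF1, TFF2, TFF3 and PHGR1), and 5 or 6 were lower and from 1 to 3 higher with 1 library left out. LGALS4, a galectin of the intestinal epithelium, fell from 29.3 and 25.9 CPM to 1.39, 0.500 and 0.852 CPM (log2 fold change -4.92 ± 0.90 (SE), edgeR adjusted p = 0.00245). MUC13, a membrane mucin, fell from 107 and 75.3 CPM to 5.07, 3.41 and 2.38 CPM (edgeR adjusted p = 0.00187). All 3 trefoil factor genes, whose secreted peptides protect mucosa, rose, and TFF3 went from 10.2 and 7.53 CPM to 49.5, 58.1 and 65.4 CPM (log2 fold change 2.7 ± 0.42 (SE), edgeR adjusted p = 0.000839). OLFM4 and GKN1 had no count in any of the 5 libraries, and the list summed to 549 to 771 CPM in PDX1-/- and 2392 and 1793 CPM in WT. How far the number of such non-islet cells contributes to these or to the beta cell values was not tested.

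**Figure D3:**
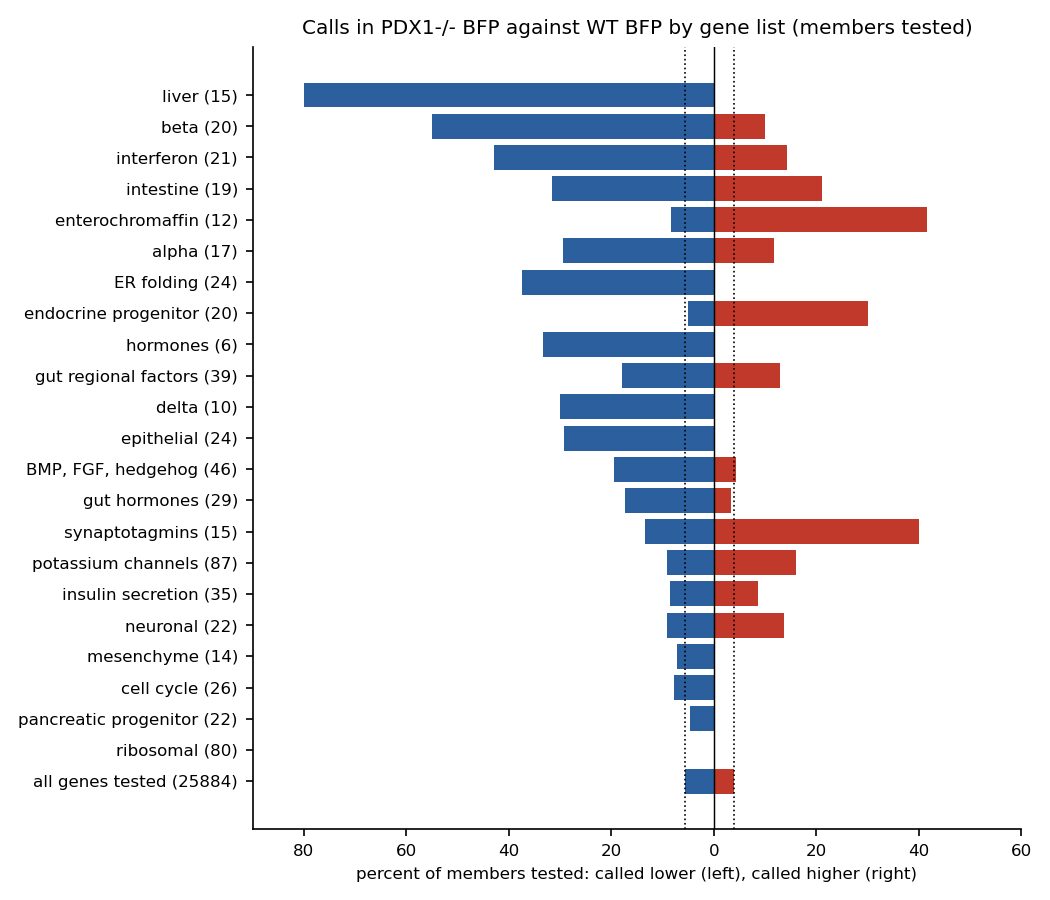
Percent of the tested members of each gene list that were called higher (red, to the right) or lower (blue, to the left) in PDX1-/- BFP against WT BFP, with the number tested in parentheses and dotted lines at the shares over all 25884 genes (4.03% higher, 5.65% lower). Liver and beta cell lists extend farthest to the left, and the enterochromaffin and synaptotagmin lists farthest to the right.

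Ion channel and exocytosis genes changed in both directions. Of 87 potassium channel genes and their partners tested, 14 were higher and 8 lower, and of 15 synaptotagmins 6 were higher and 2 lower. Calcium channels had 2 higher and 2 lower of 24, and glucose sensing and insulin release genes 3 and 3 of 35, beside 4.03% higher and 5.65% lower over all genes. With 1 library left out, 5 to 10 potassium channel genes were called higher and 1 to 4 lower, and 2 to 5 synaptotagmins higher and 1 or 2 lower, with the fewest higher in both families without WT replicate 1. KCNIP1, a calcium-binding partner of Kv4 channels, was at 149, 168 and 116 CPM against 6.53 and 8.49 CPM (log2 fold change 4.26 ± 0.51 (SE), edgeR adjusted p = 0.00018). KCNJ3, an inward rectifier opened by G proteins, rose from 12.2 and 18.1 CPM to 131, 158 and 164 CPM (edgeR adjusted p = 0.000416). ARPP21, a phosphoprotein known from striatal neurons, rose from 9.98 and 14.1 CPM to 170, 231 and 191 CPM (edgeR adjusted p = 0.000201). Neuronal markers as a list gave 3 called higher and 2 lower of 22, and 0 or 1 higher with 1 library left out.

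Surface receptors changed both ways, with 32.4% of the list called beside 9.68% of all genes. Of 34 receptor genes tested, 6 were higher and 5 lower, and from 3 to 6 and from 3 to 4 in the fits without 1 library, with 3 of each without WT replicate 1. PROKR1, a prokineticin receptor, had 30.1, 42.5 and 51.0 CPM against 0.835 and 1.15 CPM (log2 fold change 5.38 ± 0.90 (SE), edgeR adjusted p = 0.00137). The beta-1 adrenergic receptor ADRB1 rose from 1.08 and 0.846 CPM to 14.2, 18.3 and 14.7 CPM (edgeR adjusted p = 0.000234), and the neuropeptide Y receptor NPY1R from 24.9 and 30.6 CPM to 160, 218 and 166 CPM (edgeR adjusted p = 0.000757). FFAR1, the fatty acid receptor that raises insulin secretion, fell from 75.4 and 84.5 CPM to 7.60, 9.83 and 7.45 CPM (edgeR adjusted p = 0.00449). CYSLTR2, a leukotriene receptor, and TLR4, the receptor for bacterial endotoxin, were among the 10 largest falls under the naming rule, from 27.3 and 24.9 to 0.665, 0.804 and 0.459 CPM and from 13.7 and 8.16 to 0.312, 0.339 and 0.218 CPM.

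Calls among protein folding genes of the endoplasmic reticulum were in 1 direction, with 37.5% of the list called beside 9.68% of all genes. Of 24 tested, 9 were lower and none higher, with a median log2 fold change of -0.73, and from 6 to 7 were called lower with 1 library left out. HSPA5, the main chaperone of that compartment, had 1306, 1419 and 1372 CPM against 2661 and 2837 CPM (log2 fold change -1.01 ± 0.16 (SE), edgeR adjusted p = 0.000803). The disulphide isomerase PDIA6 fell from 755 and 856 CPM to 323, 332 and 335 CPM (edgeR adjusted p = 0.000801). BMP signalling genes were among 9 called lower and 2 higher of 46 genes of the BMP, FGF and hedgehog list. The share of that list called was 23.9%. The ligand BMP2 fell from 196 and 238 CPM to 35.7, 29 and 34.5 CPM (edgeR adjusted p = 0.000683), and the targets ID2, ID3, SMAD6 and SMAD7 were also called lower. That list had from 2 to 5 called lower and from 0 to 2 higher with 1 library left out, with the fewest without WT replicate 1, and ID3 lost its call in each of these fits.

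Interferon-response and antigen presentation genes split, with 57.1% of the list called beside 9.68% of all genes. Of 21, 9 were lower and 3 higher, with a median log2 fold change of -1.32, and without WT replicate 1 the counts were 3 lower and 1 higher, against 4 to 9 lower and 1 to 3 higher in the other fits without 1 library. HLA-B, an HLA class I gene with near-identical relatives whose reads can be split between them, had 97.7, 75.0 and 75.2 CPM against 330 and 334 CPM (edgeR adjusted p = 0.00872, and 0.0578 at most without 1 WT library). IRF1, a factor that induces such genes, fell from 171 and 137 CPM to 45.3, 27.9 and 35.3 CPM (edgeR adjusted p = 0.00404). IFIT1, OAS1 and IRF7 rose, and IFIT1 went from 10.1 and 8.80 CPM to 21.2, 28.0 and 23.8 CPM (edgeR adjusted p = 0.00307, and 0.0568 without WT replicate 3). Of 24 epithelial genes, 7 fell and none rose, with 3 or 4 called in the fits without 1 library. In the fit of all libraries the share of epithelial genes called was 29.2%. The epithelial adhesion gene CEACAM6 had 0.519, 0.983 and 1.09 CPM against 30.3 and 18.8 CPM (edgeR adjusted p = 0.000419).

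The cell cycle list held few calls in the fit of all libraries. Of 26 cell cycle genes, 2 were called, both lower (CCNA2 and CDK1), although the list's median log2 fold change was -0.87. The share called was 7.69%, beside 9.68% of all genes tested. With 1 library of the contrast left out, from 0 to 2 were called lower and none higher. The count was larger in other fits: 13 were lower without PDX1-/- ISL1 replicate 4 and 17 without both it and PAX6-/- ISL1 replicate 3. It was 14 with a replicate block by the number in the description and 16 when only the libraries compared were fitted. Over all genes, the number called lower rose too, from 1463 to 2160, 3858, 2417 and 3462 in the same order. MKI67, which marks dividing cells, was at 20.4, 11.6 and 17.4 CPM against 35.5 and 21.1 CPM (adjusted p = 0.329). No ribosomal protein gene of 80 and no mitochondrially encoded gene of 13 was called in the fit of all libraries. When only the libraries compared were fitted, edgeR called 18 ribosomal protein genes lower and 1 higher, and 1 mitochondrial gene lower. Among the genes named by size alone, LINC02864, a long noncoding RNA on chromosome 18, had 1 count in PDX1-/- replicate 1 and none in replicates 2 and 3, with 21.1 and 23.7 CPM in WT. With 3 counts given to each PDX1-/- library, this is at least 370-fold lower, a limit that covers counting error only (edgeR adjusted p = 0.00453).

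The ISL1-/- and PAX6-/- libraries with the same vector allow tests against PDX1-/- that use no WT library. Between PDX1-/- and ISL1-/-, 1313 of 25884 genes were called (5.07%), 606 higher and 707 lower in PDX1-/-, and between PDX1-/- and PAX6-/- 787 were called (3.04%), 394 higher and 393 lower. These comparisons share the PDX1-/- libraries with each other and with the contrast against WT, so only the values are set side by side. With 1 library of either group left out, from 528 to 904 and from 343 to 510 genes were called.

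INS was lower in PDX1-/- (87.5 to 186 CPM) than in ISL1-/-, at 2252, 2392 and 1700 CPM (log2 fold change -3.86, edgeR adjusted p = 0.0249). PAX6-/- lay between, at 938, 803 and 637 CPM, with no overlap but an adjusted p of 0.182 against PDX1-/-. GCG differed in the other direction: it was at 90.9, 74.2 and 85.3 CPM in ISL1-/- and at 29.1, 15.7 and 77.9 CPM in PAX6-/-, against at least 14970 CPM in each PDX1-/- library. Its log2 fold changes were 7.67 against ISL1-/- (edgeR adjusted p = 0.000507) and 8.70 against PAX6-/- (edgeR adjusted p = 0.000264). SST was at 0.390, 0.572 and 0.560 CPM in ISL1-/-, lower than in PDX1-/- (edgeR adjusted p = 0.00254), and at 10.9, 4.66 and 16.7 CPM in PAX6-/-, which overlapped PDX1-/-. SLC30A8 was higher in PDX1-/- than in ISL1-/- (46.9 to 66.8 CPM, edgeR adjusted p = 0.000636) and than in PAX6-/- (35.4 to 63.7 CPM, edgeR adjusted p = 0.000263).

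NKX3-2 was higher in PDX1-/- than in both other knockouts, which had 3.00 to 5.02 CPM in ISL1-/- and 1.99 to 2.47 CPM in PAX6-/- (edgeR adjusted p = 0.000981 and 0.000311). ADRB1 showed the same order, with 0.815 to 0.936 CPM in ISL1-/- and 1.72 to 2.03 CPM in PAX6-/- (edgeR adjusted p = 2.53e-05 and 0.000297). TFF1 and PHGR1 also passed the test against both, with log2 fold changes from 1.70 to 2.43. LYZ (lysozyme) was lower in PDX1-/-, at 35.6, 46.0 and 59.3 CPM, than in ISL1-/- with 532 to 789 CPM (edgeR adjusted p = 1.72e-05) and in PAX6-/- with 97.8 to 234 CPM (edgeR adjusted p = 0.00363).

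Among genes with large differences from WT, ERO1B and LINC02864 were not called between PDX1-/- and either of the other knockouts. TPH1 and NKX6-1 were called against PAX6-/- but not against ISL1-/-, and GIP against ISL1-/- but not against PAX6-/-. A missing call does not show that levels were similar. ERO1B was at 110 to 157 CPM in ISL1-/- and at 99.8 to 169 CPM in PAX6-/-, with adjusted p of 0.513 and 0.701 against PDX1-/-. LINC02864 was at most 0.104 CPM in these libraries too. TPH1 lay between WT and PDX1-/- in the other knockouts: it was at 141, 174 and 229 CPM in ISL1-/- and at 148, 94.1 and 145 CPM in PAX6-/-, all above WT and all under the lowest PDX1-/- library, at 381 CPM. The difference of PDX1-/- from ISL1-/- did not pass the test (log2 fold change 1.31, adjusted p = 0.11), while that from PAX6-/- did (1.80, edgeR adjusted p = 0.0383). NKX6-1 followed the same order, at 200 to 254 CPM in ISL1-/- and 87.8 to 153 CPM in PAX6-/- (adjusted p = 0.383 and edgeR adjusted p = 0.0314). GIP was at 13.0 to 14.3 CPM in ISL1-/-, higher than in PDX1-/- (edgeR adjusted p = 0.0115), and was at 0.303 to 0.353 CPM in PAX6-/- (adjusted p = 0.865).

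**Figure D4:**
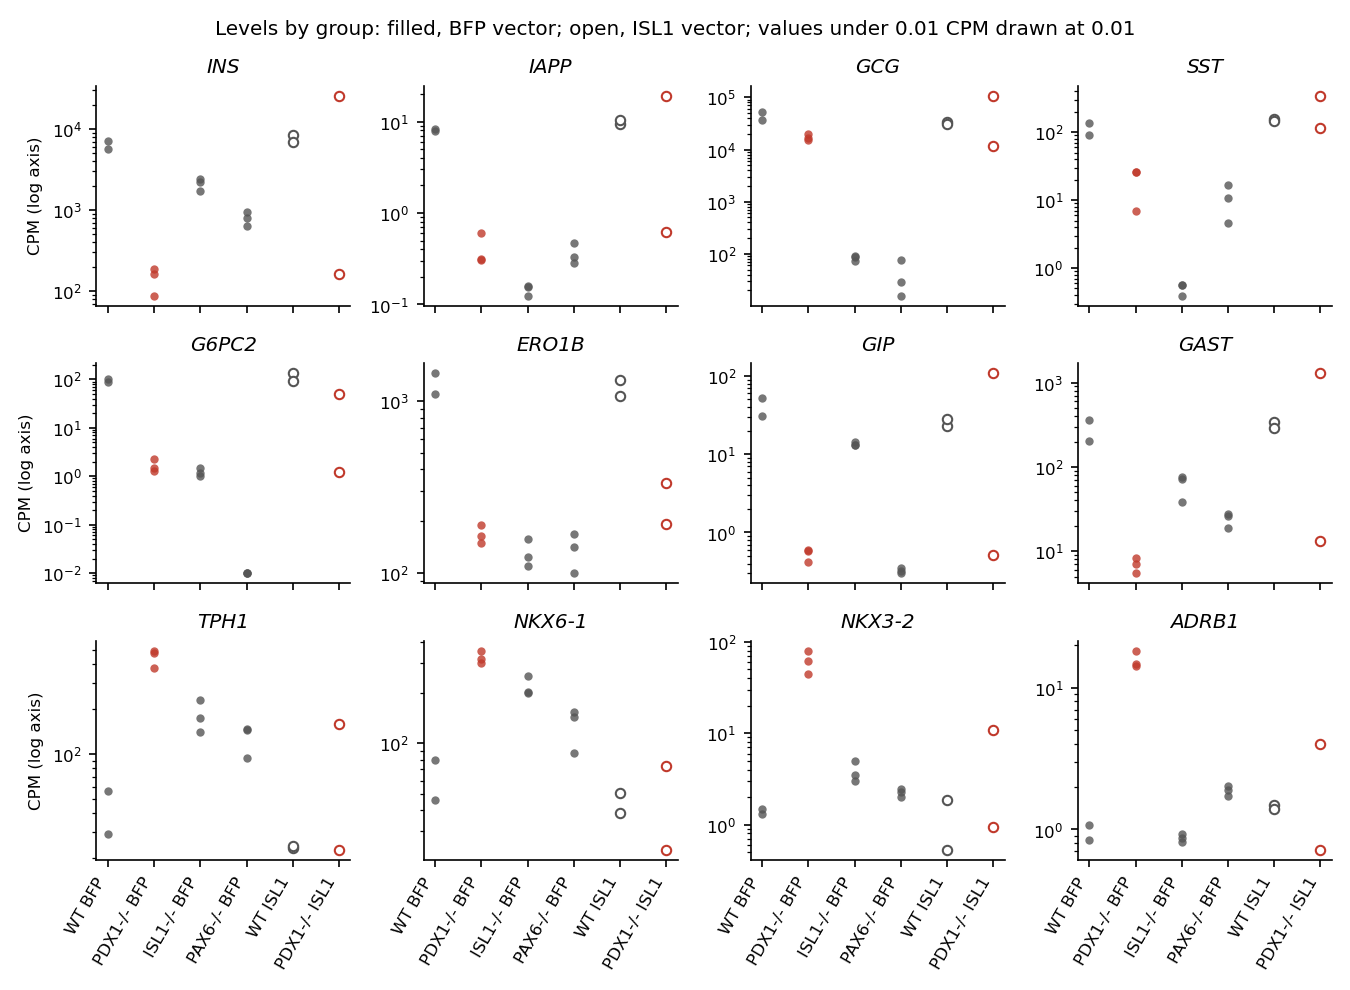
CPM on a log axis for 12 genes in every library of WT, PDX1-/-, ISL1-/- and PAX6-/- with BFP (filled points) and of WT and PDX1-/- with the ISL1 vector (open points), with PDX1-/- in red and values under 0.01 CPM drawn at 0.01. INS is lowest in PDX1-/- BFP among the BFP groups, GCG is under 100 CPM only in ISL1-/- and PAX6-/-, and the 2 PDX1-/- ISL1 libraries lie far apart for INS, GIP and GAST.

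The ISL1-vector libraries of the same genotypes were not used in the contrast, and are given here with no test. Set against the WT libraries with ISL1, replicate 2 of PDX1-/- with ISL1 was above both for 859 of the 1043 genes called higher (82.4%) and below both for 1196 of the 1463 called lower (81.7%). Over all genes tested, that library was above both in 38.9% and below both in 37.8%. Its median log2 difference was 0.47 over the genes called higher and -0.57 over those called lower, with a pseudocount of 1 CPM. Replicate 4 did not follow: it was above both WT libraries for 37.5% of the genes called higher and below both for 40.9% of those called lower, with shares over all genes of 44.5% and 44.6%. INS was at 164 CPM in replicate 2, at 25610 CPM in replicate 4 and at 8382 and 6918 CPM in the WT libraries with ISL1. TPH1 was at 160 and 22.5 CPM in replicates 2 and 4, and at 23.3 and 24.3 CPM in the WT pair.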

How the data were processed

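Per the labels' protocols, cDNA from the sorted cells was made with SMART-Seq v4, libraries with KAPA EvoPrep, and reads on a NovaSeq X instrument. The authors deposited raw read counts per gene for 21 libraries in 8 groups; the submitters' processing notes name STAR 2.7.11b, featureCounts 2.1.1 and GRCh38. The annotation release, the strand setting and the treatment of reads over overlapping genes are not given in the sources used here. Of 62700 gene IDs, 58206 are in GENCODE 29, which served to check positions, and 1 ID was left out. Gene coordinates are those deposited with the counts.

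All 21 libraries entered one edgeR 4.0.16 quasi-likelihood fit (R 4.3.3) with TMM scaling, a mean per group and no covariate, so that groups shared the estimate of spread (common biological coefficient of variation 0.334). filterByExpr with a minimum count of 10 and a total of 15 kept 25884 genes. P-values were adjusted by the Benjamini-Hochberg method over all of these, and genes under 0.05 were called. SE values are of the log2 fold change. The floor is 3 counts per library and covers counting error only. Alternatives used DESeq2 1.42.0, limma 3.58.1, other filters, replicate blocks and left-out libraries.

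Named genes were the targeted and hormone genes, the 10 largest rises and 10 largest falls with no overlap and a mean of 10 CPM or more in the group with more, and up to 5 called genes of each of 32 lists and 18 families, with defining members that were not called. Further list members were named after their values were seen. The comparison and lists were chosen with earlier results of these data known. Some members of the lists are not reported here.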

Additional observations from a re-analysis of the deposited data

Results flagged for a closer look

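Some hormone levels in the PDX1-/- libraries with the ISL1 vector, which the contrast does not use, lay above both WT libraries with that vector. In replicate 4, INS was at 25610 CPM against 8382 and 6918 CPM in WT, and GCG at 106100 CPM against 34370 and 31160 CPM. IAPP was at 19.0 CPM against 9.51 and 10.3 CPM, SST at 343 CPM against 159 and 149 CPM, and PPY at 7.26 CPM against 1.78 and 3.92 CPM. GHRL was above both WT libraries in both, at 198 CPM in replicate 2 and 276 CPM in replicate 4 against 126 and 129 CPM. These single libraries were compared without a test.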

How the results depend on the processing

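The number of genes called depended on the estimate of spread and on single libraries. Against WT, 2506 genes were called. The number was 4594 with a replicate block by the number in the description, 2239 with a replicate block by the number in the title, 6717 when only the libraries compared were fitted, 3500 with the DESeq2 Wald test and 8328 with limma voom and sample weights. It was 3984 without PDX1-/- ISL1 replicate 4, 3630 without PAX6-/- ISL1 replicate 3 and 7544 without both, the last chosen after the data were seen. Leaving out 1 library of the contrast gave from 736 to 1714. Against ISL1-/- (1313), the same settings gave 2983 with the replicate block by description, 5338, 2246 and 7160, then 2442, 2389 and 5930, and from 528 to 904 with 1 library left out. Against PAX6-/- (787) they gave 1988, 3074, 1508 and 3917, then 1581, 1486 and 4447, and from 343 to 510. DESeq2 size factors and no filter on low counts changed no number by over 1.5 times. By the number in the description, 2 pairs of PDX1-/- and WT libraries share a number, and their deviations from the group means had correlations of 0.21 and 0.106. PDX1-/- replicate 2 and WT replicate 3, which differ in that number but share the number in the title, had 0.117. The 2 WT libraries deviate from their mean by equal and opposite amounts, and the pairs are few, so these values cannot show pairing. Library numbers in the labels run by the number in the description. In the contrast they are 10 and 12 for replicate 1, 20 for PDX1-/- replicate 2, and 1 and 3 for replicate 3. What that order stands for is not given in the labels. Of 150 named genes that were called, 72 were called in every alternative, and 78 lost the call in at least 1 of the 5 fits that left out a library. The only direction that turned was that of PPY, which was not called, with log2 fold changes from -1.30 to 0.08 in fits that left out 1 library, the latter without WT replicate 3. The causes were not tested.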
